A study of Mus musculus with 36 samples.

Results

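The genes described here carry pyruvate into mitochondria and through the tricarboxylic acid (TCA) cycle, and include the malic enzymes, which turn malate back into pyruvate. They are the rows of the deposited gene tables with 36 chosen symbols, out of 56184 gene symbols in the count table. All 36 had enough counts to be tested, among 16255 tested genes. RNA with poly(A) tails was sequenced from 10 mg of brain per library, in mice killed on postnatal day 19. Mice of the genotype Gpt2-WT given vehicle (WT-Veh) gave 10 libraries and Gpt2-WT mice given 600 mg per kg dm-αKG by intraperitoneal injection (WT-aKG) gave 8. Gpt2-KO mice given vehicle (KO-Veh) gave 10 libraries and Gpt2-KO mice given the same dose of dm-αKG (KO-aKG) gave 8. Strain, sex, brain region, the injection schedule and the deleted part of Gpt2 were not given in the sources used here. Replicates are called biological by the submitters, but no label ties each library to its own animal. The p-values therefore describe only how these samples spread, which may be technical.

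Pyruvate enters mitochondria through a carrier and is then oxidised to acetyl-CoA by the pyruvate dehydrogenase complex or carboxylated to oxaloacetate by pyruvate carboxylase. The TCA cycle oxidises acetyl-CoA by way of citrate, α-ketoglutarate and succinate, and in brain α-ketoglutarate is also the carbon skeleton of the transmitters glutamate and GABA. GPT2, a mitochondrial alanine transaminase, transfers the amino group of alanine to α-ketoglutarate, giving pyruvate and glutamate, and dm-αKG is a dimethyl ester of α-ketoglutarate that enters cells.

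Levels are given in CPM, counts per library total after TMM scaling. They are not corrected for gene length, so no level is compared between genes. Libraries held 5.77 to 13.3 M counts, and the 36 genes together took 0.200% to 0.465% of them. Gpt2 itself was at 22 to 39 CPM in WT libraries and at 0.881 to 3.3 CPM in KO libraries, so that the genotypes did not overlap. Neuronal markers summed to 1850 to 2892 CPM in every library, and no marker of that list was at 0 counts. Markers of cerebellum separated libraries within groups: their mean log2 CPM exceeded the overall mean by more than 1 in 9 libraries, called cerebellum-high below. These were 3 of 10 with WT and vehicle, 4 of 8 with WT and dm-αKG, 1 of 10 with KO and vehicle and 1 of 8 with KO and dm-αKG. The libraries WT-Veh-1, KO-Veh-7 and KO-aKG-8 stood apart from the rest of their groups at 9, 4 and 4 of the 36 genes. WT-Veh-1 and KO-Veh-7 were cerebellum-high. Xist, expressed from the inactive X chromosome, exceeded the Y-linked gene Ddx3y in 2 of 10 libraries of each genotype with vehicle and, with dm-αKG, in 5 of 8 from WT and 4 of 8 from KO, and 3 of the 36 genes (Pdha1, Pdk3 and Idh3g) lie on X. With this as a covariate, Mdh2 alone of the 7 genes called on average below was no longer called (adjusted p = 0.0582).

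Few of these genes were called for genotype. A gene was called when its Benjamini-Hochberg adjusted p over all tested genes was under 0.05 in edgeR's quasi-likelihood test. With vehicle, 2 of the 36 genes were called between KO-Veh and WT-Veh, Pck2 higher and Sdha lower. The call rate over all tested genes was 4.31% (2.6% higher and 1.72% lower), so this count is close to the background. With dm-αKG, Pck2 was the 1 gene called between KO-aKG and WT-aKG, against 1.87% of all genes (1.12% higher and 0.751% lower). Averaging both genotype effects, which uses the same libraries again and is no separate evidence, gave 7 called genes against 11.9% of all genes. Of these 7, Pck2 and Sdhb were higher in KO (background 5.7% higher) and Sdha, Me1, Aco1, Cs and Mdh2 were lower (background 6.17% lower). The median log2 fold change of the 36 genes was 0.00 with vehicle and 0.00 with dm-αKG, against -0.02 and -0.02 over all tested genes. The median size of the change, without its sign, was 0.10 with vehicle for the 36 genes and 0.19 for all tested genes. Their median standard errors were 0.10 and 0.16, so the smaller changes came with more precise estimates.

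**Figure D1:**
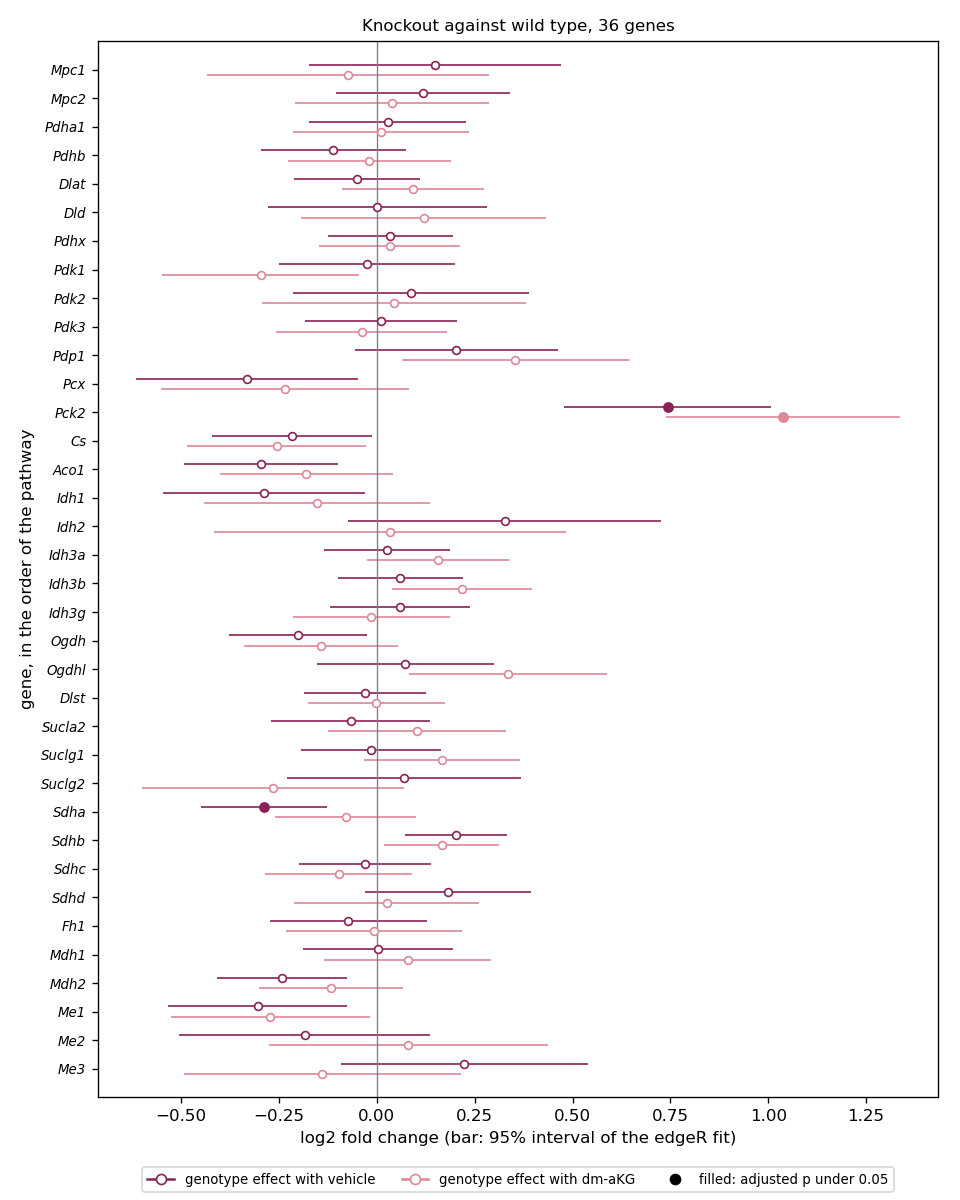
Log2 fold change between genotypes for the 36 genes in pathway order, with the 95% interval of the edgeR fit, for the comparison with vehicle and the comparison with dm-αKG. Pck2 stands to the right in both (0.74 and 1.04), Sdha is the other gene called with vehicle (-0.29), and the intervals of most other genes span 0.

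Leaving out WT-Veh-1, KO-Veh-7 and KO-aKG-8 together gave 3 called genes with vehicle (Pck2, Sdha and Sdhb), 1 with dm-αKG and 9 on average over both treatments. The 7 genes stayed among those 9, which also held Pdp1 and Ogdh. In the 27 libraries that were not cerebellum-high, 3, 2 and 4 genes were called in the same order. On average Pck2 and Cs stayed called there. Of the 7, Sdha (edgeR adjusted p = 0.115), Mdh2 (0.0886), Me1 (0.139), Aco1 (0.241) and Sdhb (0.0647) were no longer called. With marker scores of 5 brain regions as covariates in all 36 libraries, 9 genes were called on average. Of the 7, Mdh2 alone was then no longer called (edgeR adjusted p = 0.106). In bulk tissue, fewer cells of a type and less RNA per cell cannot be told apart. The astrocyte marker score, a mean log2 CPM over 10 genes, was 7.34 ± 0.25 in WT-Veh (SD, n = 10), 7.40 ± 0.24 in WT-aKG (n = 8), 7.02 ± 0.26 in KO-Veh (n = 10) and 7.28 ± 0.25 in KO-aKG (n = 8). The summed level of those markers was 2314 to 4569 CPM in WT-Veh and 2188 to 4205 CPM in KO-Veh, none was at 0 counts, and 2 of 10 were called between these groups. With the scores of neurons, astrocytes and oligodendrocytes as covariates, 1 of the 36 genes was called with vehicle (Pck2), 1 with dm-αKG and 2 on average (Pck2 and Sdhb).

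Pck2 encodes the mitochondrial phosphoenolpyruvate carboxykinase, which makes phosphoenolpyruvate from oxaloacetate. It ranged from 7.08 to 13.3 CPM in WT-Veh (median 9.93) and from 11.4 to 21.4 CPM in KO-Veh (median 17.0). With dm-αKG it ranged from 6.04 to 10.9 CPM in WT-aKG (median 8.99) and from 13.5 to 24.8 CPM in KO-aKG (median 17.9). Every KO library lay above the WT median of its treatment. With vehicle 8 of 10 KO libraries lay above the highest WT library, and with dm-αKG the groups did not overlap, as in 0.603% of all tested genes. With vehicle no gene of the set was free of overlap, against 0.277% of all tested genes. The log2 fold change was 0.74 with vehicle (SE 0.13, edgeR adjusted p = 0.00045), which is 1.67-fold. With dm-αKG it was 1.04 (SE 0.15, edgeR adjusted p = 2.13e-05), or 2.05-fold. The difference between these effects was 0.29 on the log2 scale, with a 95% interval from -0.10 to 0.69 (edgeR adjusted p = 0.961). The call of Pck2 was made under every alternative run, with log2 fold changes from 0.69 to 0.87 with vehicle and from 0.96 to 1.14 with dm-αKG. An antisense gene overlaps Pck2 in the GENCODE M21 annotation, and whether the counts used strand was not given in the sources used here. For Pck2 the deposited CPM values gave whole counts in 22 of 36 libraries and fractional ones in the rest.

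**Figure D2:**
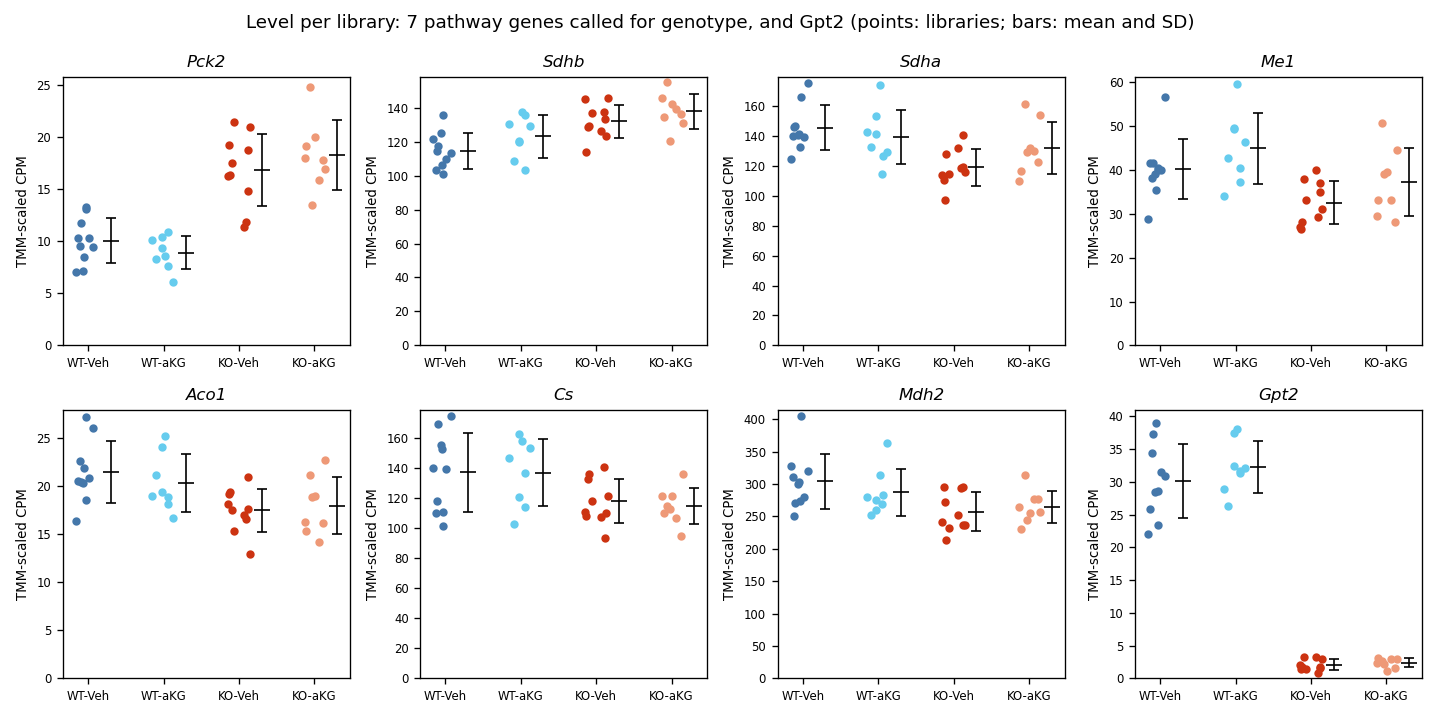
Level in TMM-scaled CPM (vertical axis, from 0) of the 7 genes called for genotype and of Gpt2, with 1 point per library in each of the 4 groups and bars for mean and SD. Pck2 and Sdhb are higher in the KO groups, and Sdha, Me1, Aco1, Cs and Mdh2 are lower there. Libraries of the genotypes overlap for all 7 genes, except for Pck2 with dm-αKG. Gpt2 separates the genotypes.

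The bases before the start of Pck2 and of the succinate dehydrogenase genes Sdha and Sdhb are shown because these genes were called and Sdha and Sdhb differed in direction. They come from RefSeq on GRCm38.p6, which may not be the build the counts used. Each covers 250 bases up to the base before the annotated start, 5′ to 3′ on the gene's strand. Capitals mark matches to TGATGNAA (the amino acid response core that ATF4 binds) or to the NRF1 core, a sequence of 10 bases with any base in the sixth place, on either strand.
Pck2, chr14:55540016-55540265, plus strand: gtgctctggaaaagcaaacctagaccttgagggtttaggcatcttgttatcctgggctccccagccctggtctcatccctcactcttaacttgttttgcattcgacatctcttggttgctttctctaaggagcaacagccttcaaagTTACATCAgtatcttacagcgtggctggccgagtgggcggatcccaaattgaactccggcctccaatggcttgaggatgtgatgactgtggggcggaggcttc
Sdha, chr13:74350241-74350490, minus strand: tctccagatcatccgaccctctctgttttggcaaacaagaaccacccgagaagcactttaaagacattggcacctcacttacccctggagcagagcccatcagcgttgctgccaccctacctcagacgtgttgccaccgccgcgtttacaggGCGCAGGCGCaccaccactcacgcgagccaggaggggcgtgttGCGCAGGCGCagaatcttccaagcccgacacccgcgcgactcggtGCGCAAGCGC
Sdhb, chr4:140961021-140961270, plus strand: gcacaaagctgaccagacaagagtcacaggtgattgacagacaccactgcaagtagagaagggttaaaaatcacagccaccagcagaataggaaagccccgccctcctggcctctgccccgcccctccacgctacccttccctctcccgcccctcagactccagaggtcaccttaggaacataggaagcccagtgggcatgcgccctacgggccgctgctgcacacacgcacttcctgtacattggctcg

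Pck2 held TGATGNAA once, on the opposite strand, 103 to 96 bases before the start. That motif was found before 3.91% of 27025 genes and, among the 32 genes of the set with a window, before Pck2 and Me3. Sdha held the NRF1 core 3 times within the last 98 bases before its start. This motif was found before 4.23% of genes, and in the set also before Sdhd and Sucla2. The Sdhb window holds neither motif. TGACGTCA, the full cyclic AMP response element, was found before Mdh2 and Ogdh and before 1.77% of genes, and CCGGAAGT, an ETS-type core, was found before 3.23% of genes and none of the set. A match describes letters only, and no binding was measured.

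The pyruvate carrier and the pyruvate dehydrogenase complex did not pass the test for genotype. The carrier subunits Mpc1 and Mpc2 changed by 0.15 (SE 0.16) and 0.12 (SE 0.11) on the log2 scale with vehicle. For the 5 genes of the complex (Pdha1 and Pdhb for the first enzyme, Dlat for the second, Dld for the third, and Pdhx for the binding protein), the values with vehicle ran from -0.11 for Pdhb to 0.03 for Pdhx. None of these 7 genes was called with dm-αKG or on average. WT-Veh-1 held 126 CPM of Dld, against 48.1 to 67.6 CPM in the other WT-Veh libraries.

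The kinases Pdk1, Pdk2 and Pdk3, which switch the complex off by phosphorylation, and the phosphatase Pdp1, which switches it on, were not called for genotype. Pdp1 came nearest. It ranged from 42.5 to 80.6 CPM in WT-Veh (median 53.7) and from 45.4 to 91.8 CPM in KO-Veh (median 67.8). The WT-aKG libraries ranged from 38.8 to 57.7 CPM (median 52.9) and in KO-aKG from 52.2 to 74.7 CPM (median 67.2). KO libraries lay above the WT median in 14 of 18 cases, and the groups overlapped. The averaged log2 fold change of Pdp1 was 0.28 (SE 0.10, edgeR adjusted p = 0.0522). Pdk1 was at -0.30 (SE 0.12, edgeR adjusted p = 0.23) with dm-αKG and at -0.03 (SE 0.11) with vehicle.

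Pyruvate carboxylase, encoded by Pcx, refills the cycle and in brain is known mainly from astrocytes. It ranged from 21.5 to 67.1 CPM in WT-Veh (median 32.9) and from 19.7 to 36.9 CPM in KO-Veh (median 30.2), the highest value being WT-Veh-1. With dm-αKG the medians were 32.9 CPM in WT and 28.1 CPM in KO. The averaged log2 fold change was -0.28 (SE 0.10, edgeR adjusted p = 0.0702).

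Cs encodes citrate synthase, which starts the cycle, and Aco1 encodes the cytosolic aconitase, also an iron-regulatory protein. Cs ranged from 102 to 175 CPM in WT-Veh (median 140) and from 93.4 to 141 CPM in KO-Veh (median 115). With dm-αKG, WT libraries ranged from 103 to 163 CPM (median 142) and in KO-aKG from 94.6 to 136 CPM (median 114). KO libraries lay below the WT median in 17 of 18 cases, although the ranges overlapped. The averaged log2 fold change of Cs was -0.24 (SE 0.08, edgeR adjusted p = 0.0353), from -0.22 with vehicle and -0.26 with dm-αKG, neither called alone. The averaged call was lost without any 1 of 11 libraries (WT-Veh-2, -7 and -8, WT-aKG-1, -4 and -8, KO-Veh-6, -8 and -10, KO-aKG-1 and -2; adjusted p 0.0514 to 0.0642). With the 3 cell type scores as covariates the averaged value of Cs was -0.09 (adjusted p = 0.469), and in the libraries that were not cerebellum-high it was -0.34 (adjusted p = 0.00239). With vehicle alone Cs was called at -0.29 (adjusted p = 0.0298) with brain region scores as covariates and at -0.31 (adjusted p = 0.0416) in the libraries that were not cerebellum-high.

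Aco1 ranged from 16.4 to 27.2 CPM in WT-Veh (median 20.7) and from 12.9 to 20.9 CPM in KO-Veh (median 17.6). In WT-aKG it ranged from 16.6 to 25.2 CPM (median 19.2) and in KO-aKG from 14.2 to 22.7 CPM (median 17.6). Of 18 KO libraries 15 lay below the WT median, with overlap. The averaged log2 fold change was -0.24 (SE 0.07, edgeR adjusted p = 0.0288), and -0.30 and -0.18 with vehicle and dm-αKG were not called. The averaged call was lost without WT-aKG-7, WT-aKG-8 or KO-aKG-1 (adjusted p 0.0529 to 0.0544). In the libraries that were not cerebellum-high it was -0.15 (adjusted p = 0.241), and with cell type covariates -0.18 (adjusted p = 0.0658). With brain region scores as covariates Aco1 stayed called on average.

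The isocitrate dehydrogenases make α-ketoglutarate from isocitrate: Idh3a, Idh3b and Idh3g encode the mitochondrial enzyme that uses NAD, and Idh1 and Idh2 the cytosolic and mitochondrial enzymes that use NADP. None of the 5 was called. With vehicle the Idh3 genes changed by 0.03 to 0.06 on the log2 scale. Idh1 had medians of 64.9 CPM in WT-Veh, 69.9 in WT-aKG, 50.3 in KO-Veh and 62.2 in KO-aKG, with a log2 fold change of -0.29 with vehicle (SE 0.13, edgeR adjusted p = 0.185). Idh2 varied most within groups, from 19.1 to 41.0 CPM in WT-Veh and from 24.9 to 50.2 CPM in KO-Veh. Its genotype effect with vehicle was 0.33 (SE 0.20), the largest standard error in the set.

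The oxoglutarate dehydrogenase complex turns α-ketoglutarate into succinyl-CoA, and the succinyl-CoA ligases (Sucla2, Suclg1 and Suclg2) then release succinate. No gene of either step was called. Ogdh, the first enzyme of the complex, was at -0.17 on average (SE 0.07, edgeR adjusted p = 0.0762), and its relative Ogdhl, an isoform known from brain, was at 0.20 (SE 0.08, edgeR adjusted p = 0.104). In Ogdhl all 8 KO-aKG libraries lay above the WT-aKG median of 17.0 CPM, and 6 of 8 lay above the highest WT-aKG library, at 19.1 CPM. The log2 fold change with dm-αKG was 0.34 (edgeR adjusted p = 0.172). With vehicle it was 0.07, at 12.9 to 25.7 CPM in KO-Veh and 14.6 to 24.9 CPM in WT-Veh. There 1 of 10 KO libraries lay above every WT library. For Idh3a and Suclg1 too, all 8 KO-aKG libraries lay above the WT-aKG median. Dlst, the second enzyme, was at -0.02 on average. The ligase genes ranged from -0.07 to 0.07 with vehicle and from -0.27 to 0.17 with dm-αKG.

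Succinate dehydrogenase, complex II of the respiratory chain, oxidises succinate, and its subunit genes did not move together. Sdha encodes the catalytic flavoprotein and Sdhb the iron-sulfur subunit, while Sdhc and Sdhd encode the membrane anchors. Sdha ranged from 125 to 176 CPM in WT-Veh (median 141) and from 97.3 to 141 CPM in KO-Veh (median 117). With vehicle all 10 KO libraries lay below the WT median and 7 lay below every WT library. The WT-aKG libraries ranged from 115 to 174 CPM (median 137) and in KO-aKG from 110 to 161 CPM (median 130), and these groups overlapped widely. The log2 fold change of Sdha was -0.29 with vehicle (SE 0.08, edgeR adjusted p = 0.0299) and -0.08 with dm-αKG (SE 0.09, adjusted p = 0.714). The difference between these 2 effects was 0.21 (95% interval -0.03 to 0.45, edgeR adjusted p = 0.961), so they are not shown to differ. The call with vehicle was lost without any 1 of WT-Veh-1, WT-Veh-2, KO-Veh-1, KO-Veh-4, KO-Veh-5 and KO-Veh-10 (adjusted p from just above 0.05 to 0.072), and it was -0.16 (adjusted p = 0.189) with cell type covariates. On average Sdha was -0.18 (SE 0.06, edgeR adjusted p = 0.0375), a call lost without any 1 of 14 libraries (WT-Veh-1, -2 and -7, WT-aKG-7 and -8, KO-Veh-1, -5, -8, -9 and -10, KO-aKG-1, -2, -3 and -4; adjusted p up to 0.0722).

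Sdhb ranged from 101 to 136 CPM in WT-Veh (median 114) and from 114 to 146 CPM in KO-Veh (median 131). With dm-αKG, WT libraries ranged from 103 to 138 CPM (median 125) and in KO-aKG from 121 to 155 CPM (median 138). Of 18 KO libraries 17 lay above the WT median, and 6 lay above every WT library. The log2 fold change was 0.20 with vehicle (SE 0.06, edgeR adjusted p = 0.064) and 0.17 with dm-αKG (SE 0.07, adjusted p = 0.25). On average it was 0.18 (SE 0.05, edgeR adjusted p = 0.0109), which is 1.14-fold, and no single library left out ended this call. It was 0.15 (adjusted p = 0.0647) in the libraries that were not cerebellum-high. With brain region scores as covariates Sdhb stayed called on average. Sdhc and Sdhd were at -0.06 and 0.10 on average and were not called.

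The log2 level of Sdhb minus that of Sdha in the same library does not depend on library scaling. It was chosen after the values were seen and is given with no test. It ran from -0.63 to -0.04 in WT-Veh (median -0.35) and from -0.08 to 0.40 in KO-Veh (median 0.13). In WT-aKG it ran from -0.35 to 0.10 (median -0.20) and in KO-aKG from -0.24 to 0.40 (median 0.10). The genotypes overlapped only slightly with vehicle and more widely with dm-αKG. A processed pseudogene is annotated within Sdha on the other strand. The deposited CPM values gave whole counts in 33 of 36 libraries for Sdha and in 35 for Sdhb.

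Fumarase (Fh1) and the malate dehydrogenases (Mdh1 in the cytosol, Mdh2 in mitochondria) close the cycle. Mdh2 ranged from 250 to 404 CPM in WT-Veh (median 302) and from 214 to 296 CPM in KO-Veh (median 247). In WT-aKG it ranged from 252 to 363 CPM (median 277) and in KO-aKG from 230 to 313 CPM (median 260). All 10 KO-Veh libraries lay below the WT-Veh median and 7 of 8 KO-aKG libraries below the WT-aKG median, with overlap in both comparisons. Against the median of all WT libraries, 14 of 18 KO libraries lay below. The averaged log2 fold change was -0.18 (SE 0.06, edgeR adjusted p = 0.0493), at the threshold: leaving out 1 library ended the call for 26 of the 36 libraries (adjusted p up to 0.0873), and it held without WT-Veh-5, -7, -9 or -10, WT-aKG-1 or -3, KO-Veh-3, -7 or -9, or KO-aKG-8. Mdh1 was at 0.04 and Fh1 at -0.04 on average, neither called.

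Me1 encodes the cytosolic malic enzyme, a source of NADPH, and Me2 and Me3 encode mitochondrial ones. Me1 ranged from 28.9 to 56.6 CPM in WT-Veh (median 40.1) and from 26.5 to 40.01 CPM in KO-Veh (median 32.2). The WT-aKG libraries ranged from 34.1 to 59.5 CPM (median 44.6) and in KO-aKG from 28.1 to 50.8 CPM (median 36.1). With vehicle all 10 KO libraries lay below the WT-Veh median, and with dm-αKG 7 of 8 lay below the WT-aKG median. Against the median of all WT libraries, 16 of 18 KO libraries lay below. The log2 fold change was -0.30 with vehicle (SE 0.11, edgeR adjusted p = 0.112) and -0.27 with dm-αKG (SE 0.13, adjusted p = 0.287). On average it was -0.29 (SE 0.08, edgeR adjusted p = 0.0225), and no single library left out ended this call. The value was -0.24 (adjusted p = 0.139) in the libraries that were not cerebellum-high and -0.16 (adjusted p = 0.128) with cell type covariates. With brain region scores as covariates Me1 stayed called on average. An antisense gene overlaps Me1 as well, and its deposited CPM values gave whole counts in 7 of 36 libraries. Me2 and Me3 were at -0.05 and 0.04 on average and were not called.

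Other genes of pyruvate and TCA cycle metabolism, 31 of 32 of which were tested, included 1 called with vehicle, Pkm. Pkm encodes the muscle-type pyruvate kinase, which makes pyruvate at the end of glycolysis. It ranged from 189 to 338 CPM in WT-Veh (median 220) and from 146 to 220 CPM in KO-Veh (median 160), a log2 fold change of -0.46 (SE 0.11, edgeR adjusted p = 0.00836), and it was -0.29 (adjusted p = 0.0546) with cell type covariates. On average over both treatments 3 of 31 were called lower in KO, against 6.17% of all tested genes, and none was called higher. These were Pkm at -0.36 (SE 0.08, edgeR adjusted p = 0.00239), the pyruvate dehydrogenase phosphatase gene Pdp2 at -0.28 (SE 0.09, adjusted p = 0.0419) and the glutamate dehydrogenase gene Glud1 at -0.26 (SE 0.09, adjusted p = 0.0469). The calls of Pdp2 and Glud1 were lost without any 1 of 19 and of 26 libraries. None of the 31 was called with dm-αKG.

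No gene of the set was called for dm-αKG in either genotype. In WT, edgeR called 0 of the 36 genes, 3 had an unadjusted p under 0.05, and DESeq2 called 0 of the 36. Over all tested genes edgeR called 0 (0%), and 8.55% had an unadjusted p under 0.05. DESeq2 gave an adjusted p for 7746 genes and called 71 of them (0.917%). A gene without an adjusted p counts as not called. In KO, edgeR called 0 of the 36 genes (0% of all genes), 4 of the 36 and 12.1% of all genes had an unadjusted p under 0.05, and DESeq2 called 0. The 3 in WT were Sdhd (0.26), Mpc2 (0.26) and Sdhc (0.20), with values above vehicle. Among WT libraries these genes also averaged higher in the cerebellum-high ones, by 0.36, 0.31 and 0.26 log2 units. Those were 4 of 8 WT-aKG and 3 of 10 WT-Veh libraries, and their part in these values was not tested. The 4 in KO were Idh1 (0.29), Suclg1 (0.24) and Idh3b (0.22), above vehicle, and Me3 (-0.39), below it. The smallest adjusted p of the set was 0.496 in WT and 0.29 in KO.

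The precision of these treatment comparisons can be read from the intervals. In WT the 95% interval lay within 0.5 log2 units (1.41-fold) of 0 for 35 of the 36 genes, the exception being Mpc1, whose interval reached 0.59. In KO it did so for 32 of 36 genes, and the intervals reached from -0.76 for Idh2 to 0.65 for Me2. Pck2 was at -0.18 (95% interval -0.46 to 0.11) in WT and 0.12 (-0.16 to 0.39) in KO. Of the 36 genes, 24 lay above 0 in KO after dm-αKG, with a median of 0.06, against 48.4% of all genes above 0 and a median of -0.01. The mean oligodendrocyte marker score was 7.53 ± 0.54 in KO-Veh and 8.33 ± 0.59 in KO-aKG, and the mean hypothalamus score was 1.21 ± 1.59 and 2.32 ± 1.59 (SD, n = 10 and 8). Their part in this count was not tested. No gene of the set, and none of all tested genes (0%), was called in edgeR for a genotype effect that differed between vehicle and dm-αKG. Unadjusted, 0 of the 36 genes and 4.48% of all genes had a p under 0.05 for this difference, and DESeq2 called 0. Its intervals reached from -0.89 for Idh2 to 0.74 for Me2.

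**Figure D3:**
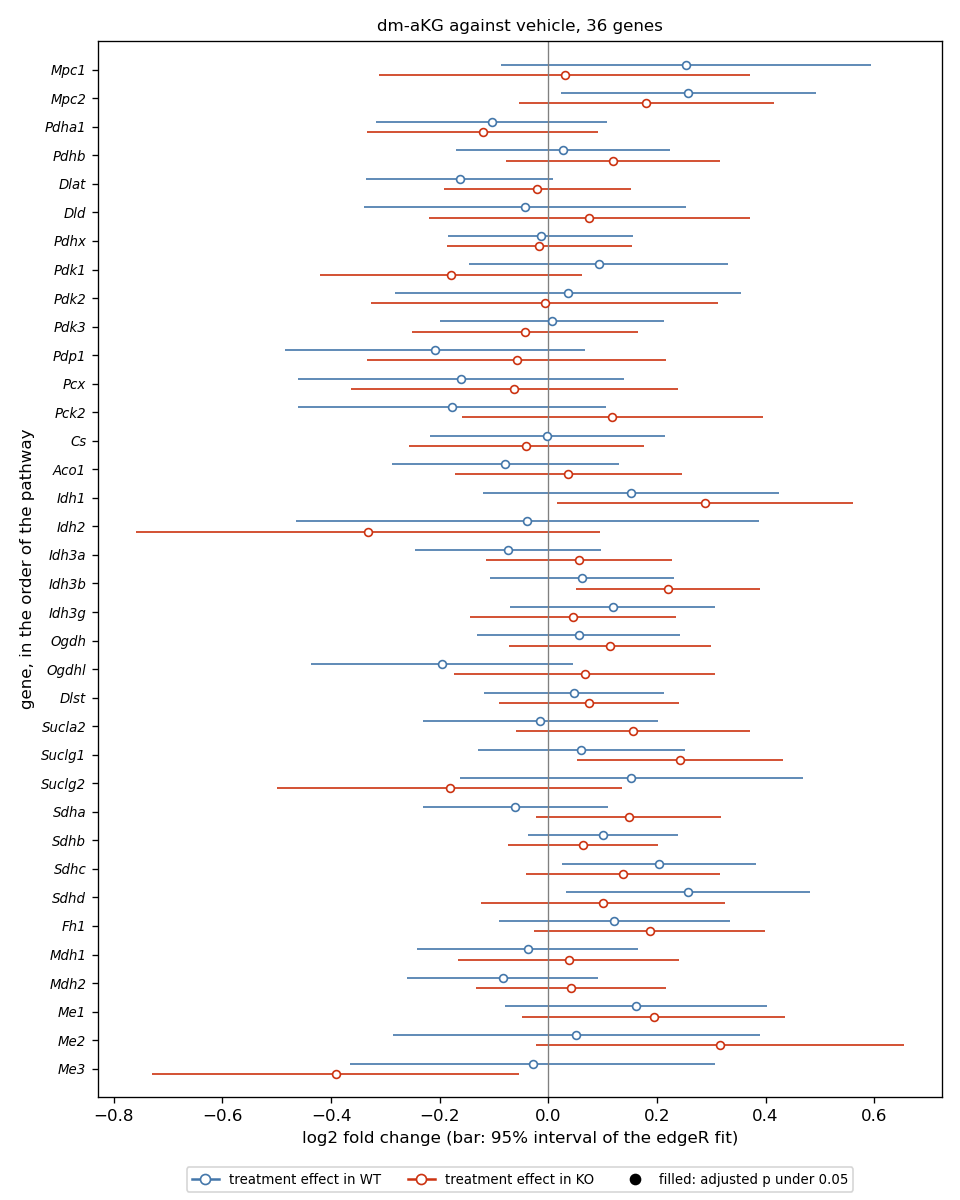
Log2 fold change of dm-αKG against vehicle for the 36 genes in pathway order, in WT and in KO, with the 95% interval of the edgeR fit. All symbols are open because no gene was called, and most intervals lie within 0.5 of 0.

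The set varied less between libraries of a group than most genes did. The median coefficient of variation within groups (SD over mean) was 14.6% for the 36 genes, 24.7% for all tested genes and 19.9% for the 10888 genes that averaged 5 CPM or more. The genes were not matched more closely for level, so whether the difference belongs to this set was not tested. Sdhb was steadiest, at 8.37%, and Idh2 (29.9%), Mpc1 (27.4%) and Me3 (26.0%) varied most. Part of this spread followed the cerebellum markers. Among the 18 WT libraries, Mpc1 averaged 277 CPM in the 7 cerebellum-high libraries and 170 CPM in the other 11, with no overlap (231 to 342 against 145 to 197 CPM). Mpc1 was the 1 gene of the set without overlap in this split, against 9.48% of all tested genes. Idh2 averaged 19.3 CPM in the 7 and 34.4 CPM in the 11, with slight overlap. These were the only genes of the set whose means differed by more than 0.5 log2 units, against 38.4% of all tested genes. Groups of libraries formed by a marker score are not the study's groups, so these values carry no test.

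**Figure D4:**
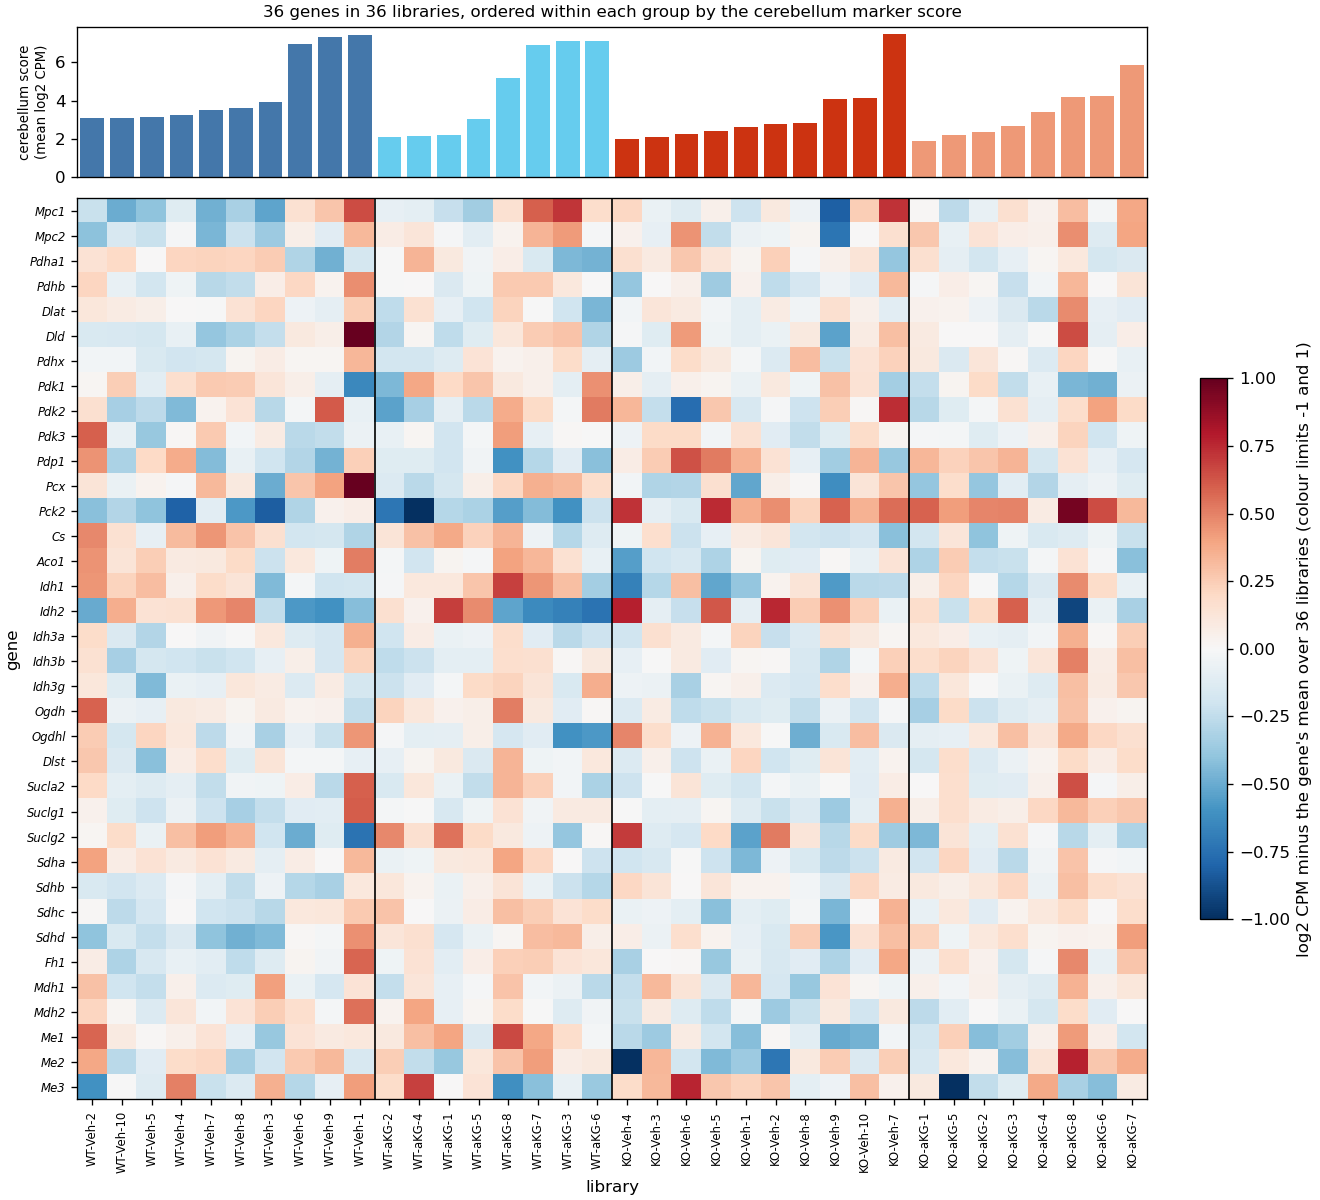
Log2 CPM of each of the 36 genes minus its mean over all libraries (colour, limits -1 and 1), with libraries in columns ordered within each group by the cerebellum marker score in the bars above (mean log2 CPM). Pck2 changes colour between the WT and KO blocks, Mpc1 and Idh2 follow the bars in the WT blocks, and WT-Veh-1 is high at Dld and Pcx.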

How the data were processed

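Polyadenylated RNA of 36 brain libraries was primed with oligo-dT carrying a barcode and a molecular identifier, per the labels' protocols. The submitters' processing notes name featureCounts 2.0.6, HISAT2 2.2.1, Trim Galore 0.6.10, SAMtools 1.6, FastQC 0.12.1, deepTools and the builds mm10 and mm39, without roles. Which build was counted, whether strand was used and how identifiers were handled were not given in the sources used here. Deposited by the authors were estimated counts per gene, written as whole numbers, and a CPM table of 21637 genes. Multiplied back, 85.6% to 88.7% of the deposited CPM values of a library were whole counts within 0.02. For 27 of the 36 genes at least 1 library was not whole, and why was not given. In GENCODE M21, 15 of the 36 genes overlap another gene.

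Counts were tested with edgeR 4.0.16 (R 4.3.3): filterByExpr, TMM, 1 robust quasi-likelihood model over 4 groups and 36 libraries with no covariate, and Benjamini-Hochberg adjustment over 16255 genes. Contrasts were both genotype effects, both treatment effects, their interaction and the averaged genotype effect. The test was also run on simulated counts with known changes, drawn independently for each gene and library from the gene's overall mean. The simulation held no cerebellum-high or outlying libraries, so it cannot show how these affect the calls. Alternatives used DESeq2 1.42.0, limma 3.58.1 on log2(CPM + 1), other filters, covariates and left-out libraries. No 2 libraries of a group among 146 pairs held identical values. The 36 genes, the gene lists and the marker lists were chosen with earlier results of these data known. Full values are given for called genes, with ranges for the rest. Promoters were read from RefSeq on GRCm38.p6 for 32 of the 36 genes (not Pdp1, Idh3a, Sdhc and Me2).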

Additional observations from a re-analysis of the deposited data

Results flagged for a closer look

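In 22 of 144 gene and group combinations 1 library lay far from the others by Dixon's criterion. Normally distributed values meet it by chance in about 1 of 20. The same libraries recur across genes, so the 144 combinations are not independent, and the share over all tested genes was not computed. WT-Veh-1 accounted for 9 of the 22. It was the highest WT-Veh library for Dld (126 CPM), Pdhx (28.7), Pcx (67.1), Sucla2 (107), Suclg1 (170), Sdhd (145), Fh1 (83.7) and Mdh2 (404), and the lowest for Pdk1 (5.64 CPM). KO-Veh-7 was the highest KO-Veh library for Suclg1 (143 CPM), Sdhc (268) and Fh1 (73.1) and the lowest for Pdha1 (69 CPM). KO-aKG-8 was the highest KO-aKG library for Dlat (75.5 CPM), Dld (99.5), Sucla2 (111) and Mdh1 (387). The remaining 5 were each the highest of their group: WT-Veh-9 for Pdk2 (41 CPM), WT-aKG-8 for Pdk3 (16.1 CPM), WT-Veh-2 for Ogdh (173 CPM) and Me1 (56.6 CPM), and KO-Veh-6 for Me3 (46 CPM).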

How the results depend on the processing

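Counts of the 36 genes called changed as follows. With vehicle, where 2 were called, there was 1 without the low-count filter, 1 in a fit of only the 2 groups, 1 with limma on log2(CPM + 1), 1 with cell type scores as covariates, 4 with DESeq2 and 5 with brain region scores as covariates. With dm-αKG, where 1 was called, there were 2 in the libraries that were not cerebellum-high. On average over treatments, where 7 were called, there was 1 without the filter, 3 with limma and 2 with cell type scores. There were 4 in the libraries that were not cerebellum-high, 8 with DESeq2 and 9 with brain region scores as covariates. Leaving out 1 library at a time gave 1 to 5 with vehicle (5 without KO-Veh-7; 1 without WT-Veh-2 or KO-Veh-1, -4, -5 or -10), 1 to 1 with dm-αKG and 3 to 9 on average (3 without WT-aKG-8 or KO-aKG-1; 4 without WT-aKG-7, KO-Veh-10 or KO-aKG-2). Treatment effects and the interaction gave 0 throughout. The log2 fold change with dm-αKG changed sign for Sdha (0.087, adjusted p = 0.804) and Mdh2 (0.054, adjusted p = 0.901) with limma, which moved the median of all genes by 0.16 in that comparison, and for Aco1 (0.011, adjusted p = 0.971) in the libraries that were not cerebellum-high. The cause of these changes was not tested. All genes called numbered 701 with vehicle, and 174 with limma, 324 in the fit of 2 groups, 348 without the filter and 1332 with brain region scores; limma made 97.7% of the calls with dm-αKG and 88.5% of the averaged calls higher in KO, against 59.9% and 48%. Replicate numbers were not taken to pair libraries, since no label says what a number shares. Of 48 pairs with the same number, 26 had a correlation of deviations over 0.1 (median 0.12, range -0.65 to 0.80). For 8 of 36 libraries the best correlation was with their own number. The level expected by chance was not computed, so these values cannot tell whether libraries of the same number share a source. With a replicate block 2, 1 and 6 genes were called with vehicle, with dm-αKG and on average, where Cs (adjusted p = 0.0609) and Mdh2 (adjusted p = 0.0798) were no longer called. The counts of Me2 were as low as 23 in a library, which limits the precision of its values.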
